A study of Homo sapiens with 6 samples.

Results

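Circular RNAs (circRNAs) arise when the end of an exon is spliced back to the start of the same or an earlier exon, which closes the RNA into a ring. The circRNAs described here came from host genes of the ubiquitin system, chosen by gene name: the deubiquitinases named USP, the conjugating enzymes named UBE2, and the ligases or ligase subunits named UBE3, UBE4, UBR, HERC, CUL, FBXO, FBXW, FBXL, RNF, TRIM and MIB. The rule used no measured value and found 176 of the 4814 listed circRNAs, from 81 of 2531 host genes. It is a rule on names, so it also took USP6NL, which is known as an activator of a Rab GTPase and not as a deubiquitinase (7 reads), and the pseudogene HERC2P2 (2 reads). Ubiquitin genes with other names stayed outside it and are given as separate lists at the end.

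The cells were Ishikawa cells, a human endometrial carcinoma line. The labels mark 3 libraries as MPA-treated, without spelling out MPA, and 3 as controls. Dose, duration and culture record are missing from the labels, so it is not known whether replicates are separate cultures; p-values therefore speak only of library-to-library spread, some of which may be technical. The MPA libraries held 4468, 4339 and 5454 reads across back-splice junctions, and the control libraries held 4316, 3740 and 3743, so that MPA libraries carried 54.7% of all reads. Every MPA library thus had more junction reads than every control library; values were scaled to these totals, and what part depth has in a difference was not tested. In bulk RNA of this kind, fewer cells that carry a circRNA and less of it per cell cannot be told apart.

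Ubiquitin is attached to proteins by a relay: an activating enzyme (E1) charges a conjugating enzyme (E2), and a ligase (E3) selects the substrate. RING-type ligases hold the charged E2 beside the substrate, whereas HECT-type ligases first take the ubiquitin onto themselves. Cullin-RING ligases are built on a cullin scaffold with exchangeable adaptors, such as F-box proteins, that bind substrates. Deubiquitinases, of which the USP enzymes are the largest family, take ubiquitin off again. A circRNA from such a gene is an RNA made of some of its exons, and its level need not follow that of the enzyme.

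The junctions printed next belong to the circRNAs that the results turn on, since a read counted here is a read across such a join. Each is the last 20 bases of the last exon in lower case, then the first 20 bases of the first exon in capitals, read on the strand of the gene. All bases shown are coding. They were read from GENCODE 29 transcripts on GRCh38, in which a run of exons matched the genomic span and spliced length of the circRNA, while positions are those deposited on hg19. The first is the circRNA with most reads, from RNF138 (exons 3 to 4, plus strand, chr18:29691717-29693823).
RNF138 hsa_circ_0005729: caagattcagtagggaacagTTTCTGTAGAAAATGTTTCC
The next set is from MIB1 on the plus strand, where circRNAs ending at exon 6 (chr18:19345733-19359646), exon 10 (chr18:19345733-19383975) and exon 12 (chr18:19345733-19399607) return to the same start of exon 2 and so have the same capitals.
MIB1 hsa_circ_0000835: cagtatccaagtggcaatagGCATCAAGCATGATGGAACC
MIB1 hsa_circ_0007504: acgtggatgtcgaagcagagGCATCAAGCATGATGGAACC
MIB1 hsa_circ_0000836: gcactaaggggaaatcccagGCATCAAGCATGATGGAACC
The USP34 set, on the minus strand, shows the 3 circRNAs of that gene with most reads, which share no splice site: exons 4 to 8 (chr2:61605498-61622368), exons 38 to 41 (chr2:61505300-61508377) and exons 42 to 51 (chr2:61472345-61493302).
USP34 hsa_circ_0120642: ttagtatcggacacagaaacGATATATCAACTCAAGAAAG
USP34 hsa_circ_0007493: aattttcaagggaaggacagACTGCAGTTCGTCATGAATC
USP34 hsa_circ_0054789: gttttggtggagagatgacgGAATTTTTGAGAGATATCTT
The USP25 set, on the plus strand, shows exons 2 to 3 (chr21:17135210-17138460), exons 17 to 18 (chr21:17205667-17214859) and exons 4 to 18 (chr21:17150223-17214859). The last 2 of these leave from the same end of exon 18 and so have the same lower-case bases, although their reads were divided differently between the groups.
USP25 hsa_circ_0001178: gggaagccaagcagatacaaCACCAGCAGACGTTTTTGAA
USP25 hsa_circ_0005238: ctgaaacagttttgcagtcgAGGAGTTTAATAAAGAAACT
USP25 hsa_circ_0115656: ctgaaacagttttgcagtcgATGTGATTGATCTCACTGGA

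As a whole the 176 circRNAs took overlapping shares of the reads in MPA and control libraries. Their reads numbered 170, 120 and 188 in the MPA libraries and 164, 129 and 152 in the control libraries, 923 of 26060 in all (3.54%). As shares of all junction reads these were 3.80%, 2.77% and 3.45% in MPA and 3.80%, 3.45% and 4.06% in control libraries. The means were 3.34% ± 0.528 in MPA and 3.77% ± 0.307 in control libraries (SD, n = 3 each), a difference of -0.431 percentage points that lay within the spread, and the groups overlapped. The second MPA library held the lowest share and the third control library the highest. The libraries read 66, 48 and 74 of the 176 circRNAs under MPA, against 67, 52 and 63 in controls.

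Most of these circRNAs were read a few times only. The median was 3 reads over all 6 libraries, as it was over all 4814 circRNAs. Of the 176, 86 were read in 1 library only (48.9%, against 48.7% of all circRNAs), 86 in 2 to 5 libraries and 4 in all 6 (2.27%, against 5.40% of all). By group, 48 were read in MPA libraries only (27.3%, against 32.7% of all circRNAs), 55 in control libraries only (31.3%, against 25.2%) and 73 in both (41.5%, against 42.1%). The 56 with exactly 2 reads had them in a single library each. A count of 0 in a library allowed a share of up to 0.0550% to 0.0802% (3 counts, counting error only), so a circRNA read in 1 group only was not shown to be absent from the other.

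In make-up the 176 were close to the whole table. The authors classed 164 as exonic (93.2%, against 89.4% of all circRNAs) and 12 as sense overlapping, which had predicted lengths from 516 to 87344 bases. The exonic ones had a median length of 585.5 bases, against 551 for all exonic circRNAs. A circBase identifier, which marks a circRNA listed in that public catalogue, was given for 143 of the 176 (81.3%, against 78.9% of all). Of the 33 without one, none had more than 4 reads and 2 were read in more than 1 library. Those with 4 reads were a circRNA of MIB1 exons 7 to 12 (4, 0 and 0 reads in MPA, none in control libraries) and a sense-overlapping one of UBE3A (1, 0 and 3 reads in MPA, none in control libraries). A further 8 had 3 reads and 23 had 2.

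Exons could be assigned to 161 of the 176, all of them exonic. They held a median of 4 exons, as did the matched circRNAs of the whole table, and the longest run was the 22 exons from 49 to 70 of USP34. In 46 the ring began at exon 2 (28.6%, against 30.1% of all matched circRNAs), and none held the first or the last exon of its transcript. Among 159 in coding transcripts, 136 consisted of coding bases only (85.5%, against 83.9%) and 19 held the start codon (11.9%, against 14.4%). Of the 136, 46 had a length divisible by 3 (33.8%, against 36.3%).

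Splice sites were often shared, as they were over the whole table: 84 of the 176 had a start or end in common with another (47.7%, against 43.8% of all circRNAs). Within a host gene, 56 circRNAs used one of 25 start sites common to at least 2 of them, and 42 used one of 19 common end sites. A host gave a single circRNA in 38 of 81 cases (46.9%, against 59.9% of all host genes), and 6 hosts gave 5 or more (7.41%, against 6.28%). Among them were USP34 with 11, MIB1 with 10, USP25 with 8, UBE3C with 7 and USP3 with 6. Hosts with many circRNAs were not always those with many reads, since USP34 had 35 reads over its 11 and RNF138 had 78 over 2.

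By family, the RNF and USP genes held the most reads. The RNF genes held 226 reads from 23 circRNAs of 16 hosts, and the USP genes held 219 reads from 58 circRNAs of 18 hosts. MIB1, the only MIB host, held 107. The UBE2 genes held 81, UBE3 and UBE4 genes 77, TRIM genes 57, UBR genes 56, F-box genes 49, HERC genes 37 and cullins 14. In each of these 10 families the shares of the groups overlapped.

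**Figure D1:**
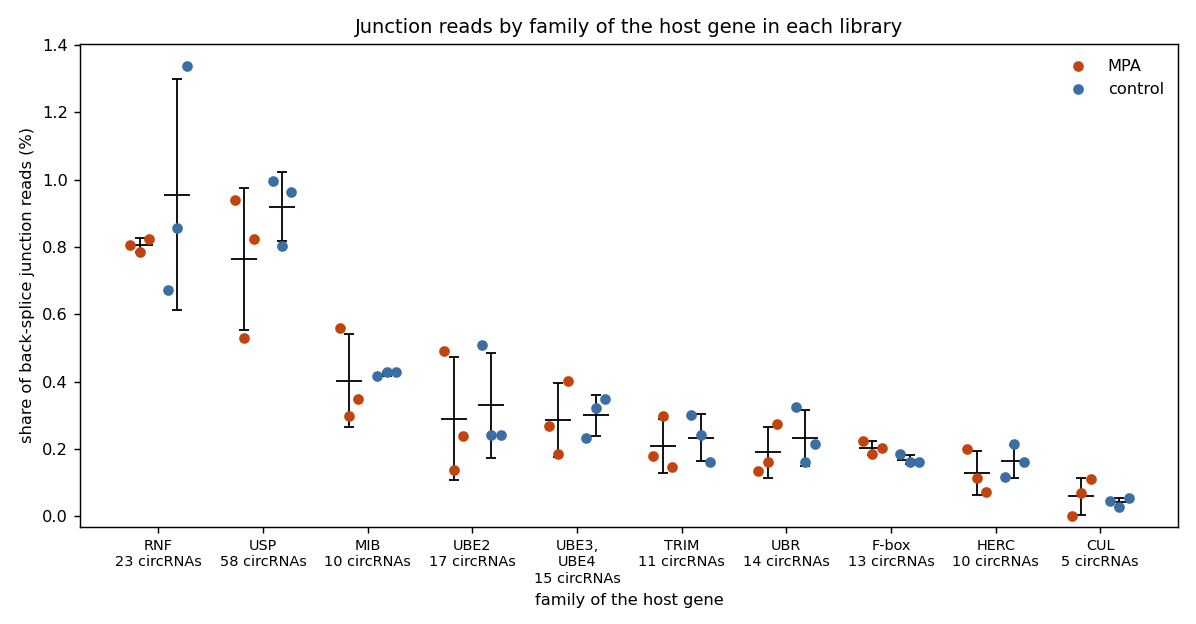
Share of all back-splice junction reads (%) by family of the host gene, with MPA libraries on the left and control libraries on the right of each pair; points are libraries, and bars give the mean and SD (n = 3 each). The RNF genes averaged 0.805% in MPA and 0.954% in control libraries, the USP genes 0.765% in MPA and 0.920% in control libraries, and the points of the groups overlap in each family.

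Only 3 of the 176 circRNAs reached the mean of 5 reads per library at which circRNAs were tested. They held 212 reads, 23.0% of those of all 176, and came from ligase genes of the RING type. RNF138 encodes a RING ligase with a role in the repair of DNA double-strand breaks. Its circRNA of exons 3 to 4, 282 bases long, was the 16th most read of the whole table with 74 reads. It had 13, 16 and 15 reads in MPA libraries and 6, 9 and 15 in control libraries. The MPA libraries lay close together, while the third control library reached the MPA level and the other two lay below it. In the fit, its log2 fold change was 0.33 (SE 0.431, n = 3 each, 95% interval -0.52 to 1.17; adjusted p = 0.936 by edgeR's quasi-likelihood test). It was 0.09 without the first control library and 0.69 without the third.

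RNF13 encodes a RING ligase anchored in internal membranes. All 4 of its circRNAs began at exon 3 of 11, and they ended at exons 5, 6, 8 and 9. The one ending at exon 9 (hsa_circ_0001346, plus strand, chr3:149563798-149639014) had 12, 9 and 13 reads in MPA and 9, 13 and 15 in control libraries, which overlap. Its log2 fold change was -0.35 (SE 0.430, 95% interval -1.19 to 0.50; edgeR adjusted p = 0.936). The one ending at exon 8 (hsa_circ_0003502) had 1, 2 and 0 reads in MPA and 3, 2 and 2 in control libraries. Since all 4 hold the exon with the start codon and some untranslated bases, their junctions are not printed.

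MIB1 encodes Mind bomb 1, the RING ligase that acts on Notch ligands so that they are taken up into the cell. Its circRNA of exons 2 to 6 had 15, 6 and 12 reads in MPA libraries and 11, 11 and 12 in control libraries. The control libraries were nearly equal, and the MPA libraries lay on both sides of them. The fit gave a log2 fold change of -0.27 (SE 0.431, 95% interval -1.11 to 0.58; edgeR adjusted p = 0.936), which was -0.67 without the first MPA library and -0.03 without the second. The longer ring of exons 2 to 12 had 3, 1 and 3 reads in MPA and 5, 0 and 1 in control libraries. Together the 5 MIB1 circRNAs that start at exon 2 held 92 of its 107 reads, with 18, 11 and 17 in MPA and 17, 15 and 14 in control libraries.

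None of these 3 circRNAs passed the test, and none of the 91 tested over the whole table did (0%). Without the second control library 1 circRNA passed, from RAB3IP, which is not in the set. At an unadjusted p under 0.05, edgeR gave 2 of 91 (2.2%) and DESeq2's Wald test 1 (1.1%), none of them from these genes. All 3 intervals excluded a 4-fold difference in either direction and none excluded a 2-fold one. The shares of the groups overlapped for each of the 3, whereas over all 91 they did not overlap for 8 (8.79%). Their median log2 fold change was -0.27, beside 0.14 over all 91.

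**Figure D2:**
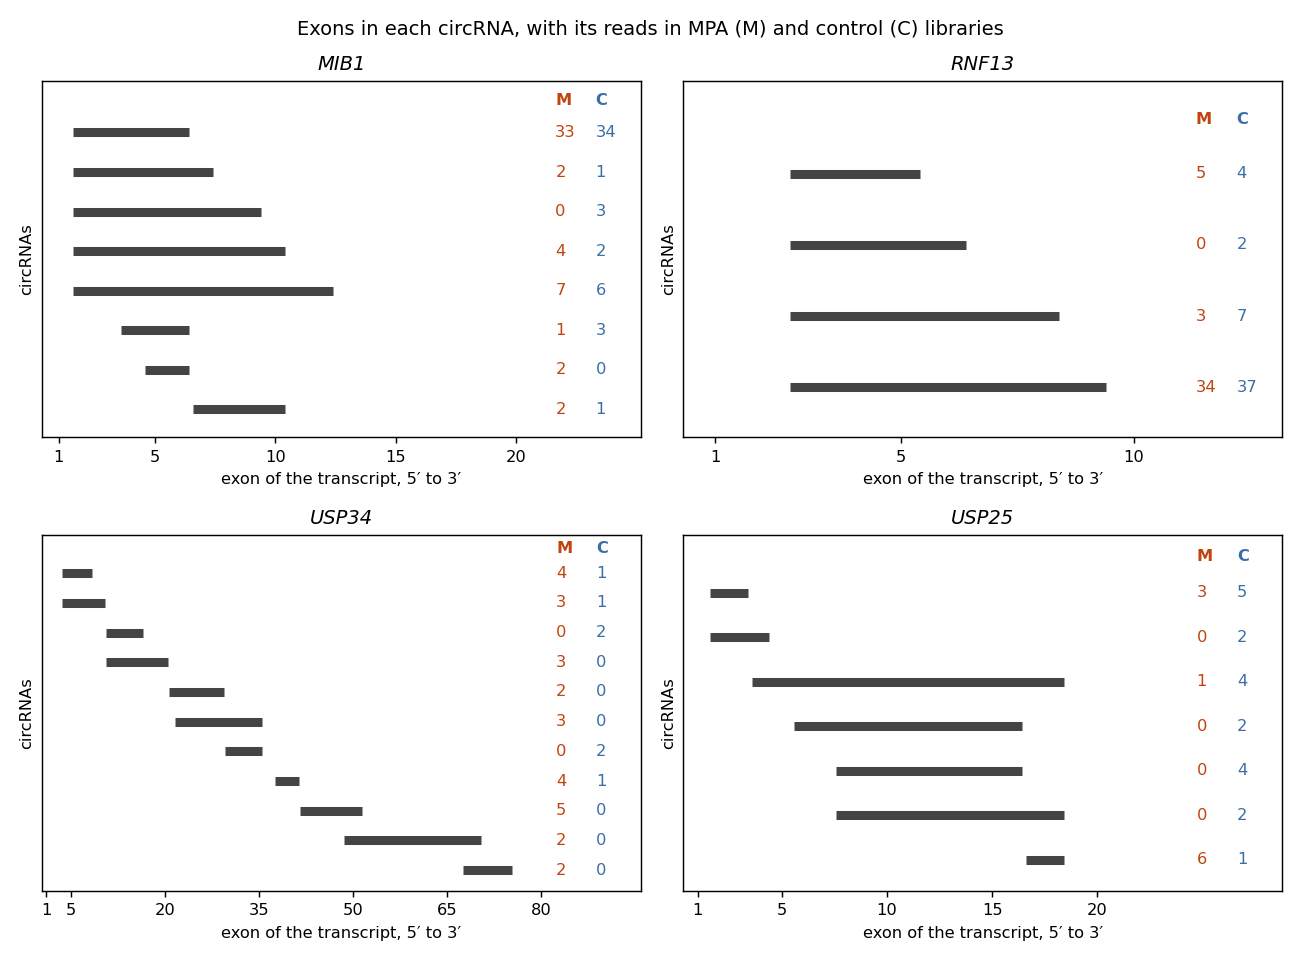
Exons held by each circRNA of MIB1, RNF13, USP34 and USP25, as bars over the exon number of the transcript that most of them matched; orange and blue numbers are the summed reads of the 3 MPA (M) and the 3 control (C) libraries. For MIB1, 8 of 10 circRNAs are drawn and for USP25 7 of 8, the others having matched no exons or another transcript; MIB1 and RNF13 show bars from a common start, and USP34 shows bars spread along the gene.

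Reads summed per host gene gave 7 hosts with a mean of at least 5 reads, holding 413 of the 923 reads. None of the 7 passed the threshold of the edgeR test, nor did any of the 180 hosts tested (0%), and DESeq2 also called none. Without the second control library 1 host passed, RAB3IP again. At an unadjusted p under 0.05, edgeR gave 3 of 180 hosts (1.67%), USP34 among them, and DESeq2 gave 0. Of the 7, 2 had a log2 fold change above 0 and 5 below, with a median of -0.14 beside 0.03 over all 180. For 5 of the 7 the interval excluded a 4-fold difference. In 3 of the 7 the shares of the groups did not overlap (USP34, USP25 and RNF13), against 12 of all 180 hosts (6.67%), with 6 of 180 (3.33%) above in MPA and 6 (3.33%) below. USP34 reached the filter only through its MPA libraries (mean of 9.33 reads, against 2.33 in controls). USP25 reached it only through its control libraries (7.33, against 3.33 in MPA). The count of 3 is thus not independent of the filter.

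Among the ligase hosts, RNF13 had 15, 11 and 16 reads in MPA libraries and 17, 15 and 18 in control libraries. As shares these were 0.336%, 0.254% and 0.293% in MPA and 0.394%, 0.401% and 0.481% in controls, so every MPA library lay below every control library. The log2 fold change was -0.48 (SE 0.369, edgeR unadjusted p = 0.198, adjusted p = 0.946). Groups that lie apart over all 6 libraries stay apart when 1 is left out, so that could not serve as a check. With single libraries left out, the log2 fold change of RNF13 ran from -0.58 to -0.40. RNF138 had 13, 16 and 17 reads in MPA and 8, 9 and 15 in control libraries, and its groups overlapped through the third control library alone (log2 fold change 0.29, SE 0.407; edgeR adjusted p = 0.946). The value was 0.05 without the first control library and 0.58 without the third.

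MIB1 had 25, 13 and 19 reads in MPA and 18, 16 and 16 in control libraries. Its log2 fold change was -0.04 (SE 0.347, 95% interval -0.72 to 0.64; edgeR adjusted p = 0.965), the one interval of the 7 to exclude a 2-fold difference. The spread of MIB1 lay in the MPA group, which ran from 13 to 25 reads, with controls at 16 to 18.

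UBE3A, the HECT ligase also known as E6-AP, whose loss in neurons causes Angelman syndrome, had 7, 5 and 6 reads in MPA and 5, 9 and 3 in control libraries. The control libraries spanned the MPA range, and the log2 fold change was -0.14 (SE 0.635; edgeR adjusted p = 0.946). Most of its reads came from the ring of exons 2 to 5 (hsa_circ_0000586, minus strand, chr15:25650608-25657118), with 5, 5 and 3 reads in MPA and 5, 5 and 3 in control libraries. That circRNA and the 3 tested ones were the 4 read in all 6 libraries.

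Of the deubiquitinases, USP34 gave the widest difference. USP34 is a very large enzyme known to act on axin in Wnt signalling. It had 7, 5 and 16 reads in MPA libraries and 3, 1 and 3 in control libraries. As shares these were 0.157%, 0.115% and 0.293% in MPA and 0.0695%, 0.0267% and 0.0801% in controls. The lowest MPA library lay above the highest control library, and the third MPA library was highest. The fit gave a log2 fold change of 1.71 (SE 0.725, 95% interval 0.29 to 3.13). The unadjusted edgeR p was 0.0187 and the adjusted p 0.946. DESeq2 gave an unadjusted p of 0.0544.

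No single circRNA carried the USP34 value. Its 11 circRNAs had 2 to 5 reads each, and 6 were read in MPA libraries only, 2 in control libraries only and 3 in both. The libraries read 4, 4 and 7 of them under MPA and 2, 1 and 2 in controls. The 3 with 5 reads were those of exons 42 to 51 (0, 1 and 4 reads in MPA, none in controls), exons 38 to 41 (1, 1 and 2 in MPA; 0, 0 and 1 in controls) and exons 4 to 8 (1, 1 and 2 in MPA; 0, 1 and 0 in controls). The third MPA library, which has the most junction reads of all 6, held 16 of the 28 MPA reads. Without it the mean shares were 0.136% in MPA and 0.0588% in control libraries, but USP34 then had a mean of 3.80 reads and was not tested.

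USP25, a deubiquitinase known from immune signalling, lay the other way. It had 5, 3 and 2 reads in MPA libraries and 11, 5 and 6 in control libraries. As shares these were 0.112%, 0.0691% and 0.0367% in MPA and 0.255%, 0.134% and 0.160% in controls, with every MPA library below every control library. The log2 fold change was -1.31 (SE 0.744, 95% interval -2.77 to 0.15; edgeR unadjusted p = 0.0791, adjusted p = 0.946). Without the first control library the mean shares were 0.0726% in MPA and 0.147% in controls, and USP25 fell under the filter.

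Within USP25 the rings did not all lie on the same side. Of its 8 circRNAs, 5 were read in control libraries only, 3 in both groups and 0 in MPA only. The ring of exons 17 to 18 had 3, 2 and 1 reads in MPA and 1, 0 and 0 in control libraries. The other 7 circRNAs together had 2, 1 and 1 reads in MPA and 10, 5 and 6 in control libraries. That ring was singled out after its values were seen, and the difference between it and the rest was not tested.

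USP3, which removes ubiquitin from histones, had 7, 1 and 9 reads in MPA and 5, 8 and 4 in control libraries, equal in sum. Its log2 fold change was -0.25 (SE 0.673; edgeR adjusted p = 0.946), and the second MPA library lay below all the others. Its most-read ring (hsa_circ_0104109, 1158 bases) had 1, 0 and 5 reads in MPA and 3, 1 and 1 in controls.

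**Figure D3:**
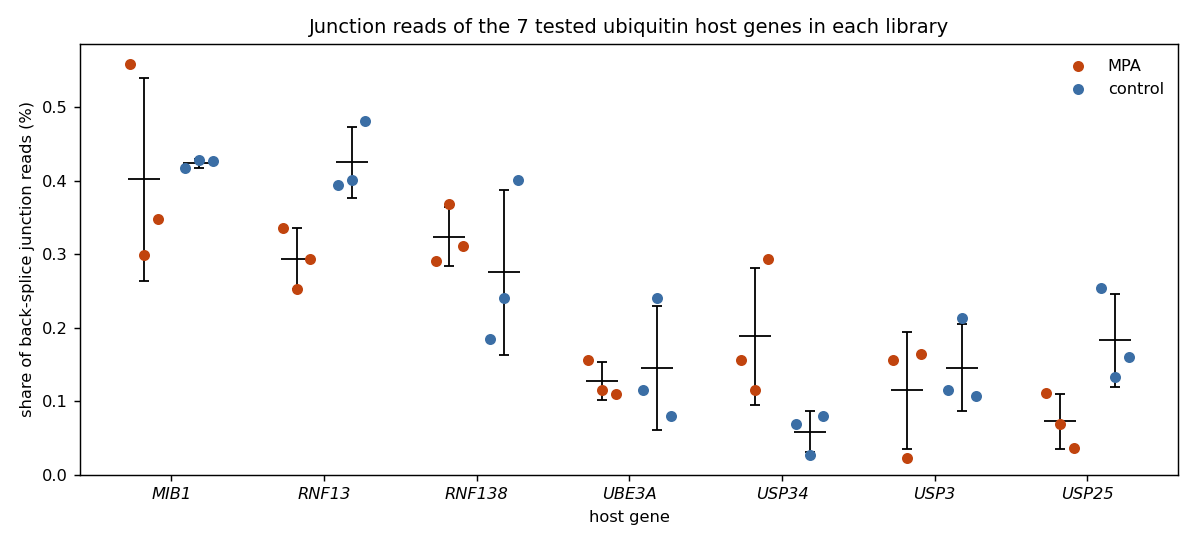
Share of all back-splice junction reads (%) of each host gene with a mean of at least 5 reads, with MPA libraries on the left and control libraries on the right of each pair; points are libraries, and bars give the mean and SD (n = 3 each). The groups lie apart for RNF13, USP34 and USP25 and overlap for MIB1, RNF138, UBE3A and USP3.

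**Figure D4:**
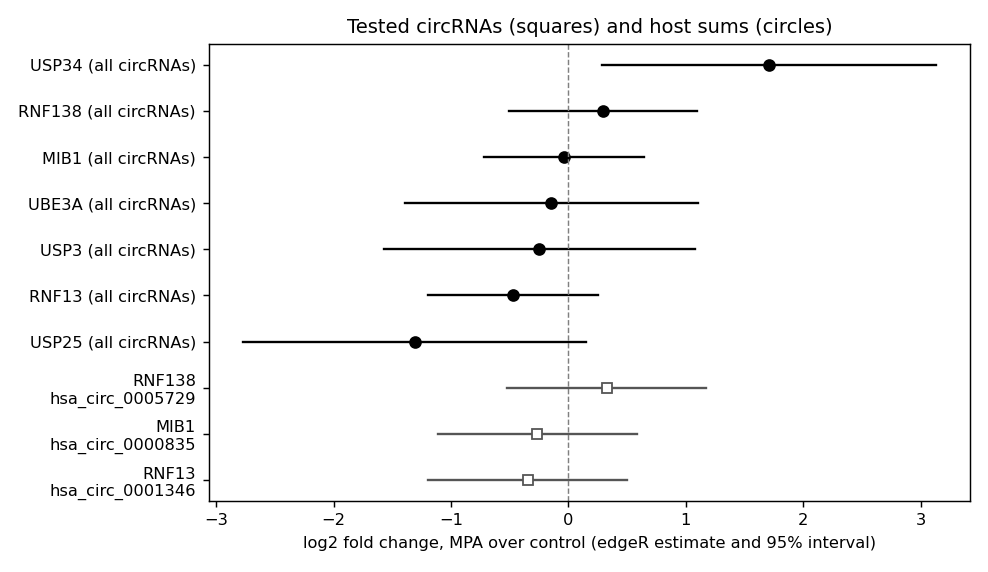
Log2 fold change of MPA over control libraries with its 95% interval from edgeR, for the 7 host sums (circles) and the 3 circRNAs (squares) that were tested. The interval of USP34, from 0.29 to 3.13, is the only one that leaves out 0 before adjustment; after adjustment no value passed.

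Hosts with fewer reads were described without being part of the main test. With the filter lowered to a mean of 2 reads, 19 hosts of the set entered, 6 with a log2 fold change above 0 and 13 below, a median of -0.23 beside 0.01 over all 565. None was called by edgeR (lowest adjusted p = 0.987), as none of the 565 was (0%), with 19 of 565 at an unadjusted p under 0.05 (3.36%). Of the 19, 3 had groups that did not overlap, against 48 of 565 (8.5%). USP34 lay above in MPA, as did 26 of 565 (4.6%), and USP25 and RNF13 lay below, as did 22 of 565 (3.89%). These are the same 3 hosts as before, which a lower filter could not remove, so their return is no check. The groups overlapped in every host that the lower filter added.

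UBE3C, a HECT ligase that works at the proteasome, had 5, 0 and 14 reads in MPA and 2, 0 and 4 in control libraries. The second library of each group had none and the third of each the most, and the groups overlapped. The log2 fold change was 1.29 (SE 0.899; edgeR adjusted p = 0.987). The ring of exons 14 to 18 (hsa_circ_0133805, plus strand, chr7:157009561-157024021) had 3, 0 and 4 reads in MPA and none in control libraries, and 4 of its 7 circRNAs were read in MPA only, 2 in controls only.

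Among TRIM genes, which encode RING ligases, TRIM33 is known as a regulator of SMAD4 in TGF-beta signalling. It had 0, 3 and 2 reads in MPA and 6, 4 and 2 in control libraries, and the groups overlapped. The log2 fold change was -1.46 (SE 0.987; edgeR adjusted p = 0.987). Its ring of exons 2 to 4 (hsa_circ_0004127, minus strand, chr1:115005726-115007010) had 0, 3 and 2 reads in MPA and 4, 4 and 0 in controls. The junction is printed since it is the most-read TRIM circRNA.
TRIM33 hsa_circ_0004127: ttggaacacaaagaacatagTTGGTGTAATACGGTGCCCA

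The UBR ligases recognise destabilising ends of proteins. The most-read UBR circRNA was that of UBR3 exons 2 to 5 (hsa_circ_0002603), with 1, 2 and 2 reads in MPA and 4, 1 and 0 in control libraries. All 4 UBR hosts together had 28 reads in MPA and 28 in control libraries.

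HERC2, a very large HECT-type ligase of the DNA damage response, led its family with 0, 0 and 2 reads in MPA and 2, 3 and 4 in control libraries. As shares these were 0, 0 and 0.0367% in MPA and 0.0463%, 0.0802% and 0.107% in controls, so the HERC2 groups did not overlap. The MPA counts of 0 allowed shares of up to 0.0671% and 0.0691%, above the first control library. HERC2 was not in the counts of such hosts given above, which start at the filters. The mean of HERC2 was under 2 reads, below both filters on low values. HERC2 has near-identical copies elsewhere in the genome, HERC2P2 among them, so the placing of its reads is uncertain, as it is for USP32 and TRIM16.

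The cullin and F-box genes gave few reads. CUL3, the scaffold that binds BTB-domain adaptors, had 7 reads in all. FBXO7 and FBXO11, substrate adaptors of the SCF ligase, had 9 each. FBXO7 had 2, 1 and 1 reads in MPA and 2, 0 and 3 in control libraries, all from a ring made of exon 2 alone. The 10 F-box hosts together had 10, 8 and 11 reads in MPA and 8, 6 and 6 in control libraries. Their shares of 0.224%, 0.184% and 0.202% in MPA and 0.185%, 0.160% and 0.160% in controls overlapped only where the second MPA library lay just under the first control library, at means of 0.203% ± 0.0198 in MPA and 0.169% ± 0.0144 in controls (SD, n = 3 each).

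Of the conjugating enzymes, UBE2G1, which works with cullin-RING ligases, had most reads. It had 5, 0 and 4 reads in MPA and 8, 1 and 4 in control libraries, with the second library of each group lowest. Its ring of exons 3 to 5 (hsa_circ_0003239, minus strand, chr17:4186093-4200109) held 20 of its 22 reads, and its log2 fold change was -0.78 (SE 0.901; edgeR adjusted p = 0.987). USP45, a deubiquitinase known to act on the DNA repair nuclease subunit ERCC1, gave a ring of exons 2 to 5 (hsa_circ_0077430), with 0, 2 and 1 reads in MPA and 4, 3 and 0 in control libraries.

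Ubiquitin genes outside the naming rule were looked at as 7 lists of 270 genes. Of these, 88 had at least 1 circRNA, 221 circRNAs in all with 1272 reads. The 13 hosts that could be tested gave 0 calls by edgeR (lowest adjusted p = 0.946), with 4 log2 fold changes above 0 and 9 below. UBA2, a subunit of the E1 for SUMO, had 16, 15 and 20 reads in MPA and 18, 23 and 16 in control libraries (log2 fold change -0.39, SE 0.345). BARD1, the ligase partner of BRCA1, had 8, 8 and 19 in MPA and 20, 11 and 10 in control libraries (log2 fold change -0.45, SE 0.411). UBAP2, a protein with a ubiquitin-binding domain, had 28, 18 and 31 in MPA and 13, 17 and 16 in control libraries (log2 fold change 0.50, SE 0.333). The proteasome activator PSME4 had 16, 26 and 16 in MPA and 21, 8 and 16 in control libraries (log2 fold change 0.17, SE 0.353). For the cullin adaptor KLHL8 and the deubiquitinase ZRANB1 the log2 fold changes were -0.23 (SE 0.443) and 0.53 (SE 0.565).

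Cell identity could be checked only weakly from circRNAs. Of 16 markers of an endometrial epithelial line, 3 had a circRNA (CDH1, PAX8 and EPCAM, 8 reads in all). Of 17 markers of fibroblasts, smooth muscle, endothelial and immune cells, only FBN1 had one, with 3 reads. The estrogen and progesterone receptor genes had none listed, which says nothing of their linear RNA.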

How the data were processed

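The deposited table gives whole-number counts of back-splice junction reads for each circRNA and library, per the file headers, without normalization, and another deposited column gives predicted lengths in bases. Every listed circRNA has at least 2 reads in at least 1 library. CASAVA 1.8, BWA and hg19 appear in the submitters' processing notes with no role stated; how circRNAs were called is not given in the sources. The table's 6 other columns, on a log scale, were left out. The table holds junction reads only, so total sequencing depth is not known here and a change in all circRNAs together cannot be told apart from a change in depth.

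Counts of every circRNA averaging 5 or more reads per library were fitted with edgeR 4.0.16 (R 4.3.3): TMM scaling on the tested circRNAs with full junction-read totals as library sizes, robust quasi-likelihood fits, MPA against control, with p-values adjusted by Benjamini-Hochberg and called at 0.05. Reads summed per host gene were fitted the same way; 10 circRNAs with no host name (0.0806% of reads) stayed out. Standard errors and 95% intervals were computed from the quasi-likelihood F. DESeq2 1.42.0 was the other test. Limits for counts of 0 are 3 counts per library. Within groups, library pairs differed beyond sampling noise (largest chi-square p = 0.00581), so each counted as 1 replicate. Python 3.11.15 with pandas 2.3.3 made the summaries.

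Exons were assigned where a run of exons of a GENCODE 29 transcript of the same gene had the genomic span and spliced length of the circRNA; no coordinate was converted between builds.

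The members and lists were chosen with earlier results of these data known. Named were the members tested, the 10 circRNAs with most reads (ties included), hosts with 5 or more circRNAs, the host with most reads in each family and in each other list, and the circRNAs with most reads among those without a circBase identifier; a few genes that this rule names are not reported here.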

Additional observations from a re-analysis of the deposited data

How the results depend on the processing

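Among 118 values of the 10 tested circRNAs and hosts under 12 other settings (other size factors, DESeq2, other filters, the replicate block, each library left out), 113 kept their direction, 5 changed sign and 0 were called (lowest adjusted p = 0.555). The sign changes were MIB1 at 0.11 without the second MPA library and 0.02 without the third, UBE3A at 0.38 without the second control library, and USP3 at 0.19 without the second MPA and 0.11 without the second control library; the cause was not tested. The lowest values with single libraries left out were -0.34 for MIB1, -0.49 for UBE3A and -0.67 for USP3. With single libraries left out, RNF138 ran from 0.05 to 0.58 as a host and from 0.09 to 0.69 as a circRNA, the MIB1 circRNA from -0.67 to -0.03, the RNF13 host from -0.58 to -0.40 and its circRNA from -0.50 to -0.22. USP34 ran from 1.38 to 1.94 and USP25 from -1.75 to -1.01, in the fits where each still passed the filter. Leaving out the second control library gave 1 called circRNA and 1 called host, both RAB3IP (edgeR adjusted p = 0.0319 and 0.00977), which is no ubiquitin gene of the set; the range over single libraries left out was 0 to 1 at each level, and all other settings gave 0. With single libraries left out, an alternative chosen after seeing the data, the count of hosts whose groups did not overlap was 2 to 4. Leaving a library out cannot make separate groups overlap, so a host could leave this count only through the filter. USP34 fell under the filter without the third MPA library and USP25 without the first control library. MIB1 lay apart (below in MPA) without the first MPA library, UBE3C (above in MPA, then within the filter) without the second, and RNF138 (above in MPA) without the third control library. The share difference ran from -0.664 to -0.144 percentage points with single libraries left out and was -0.430 with exonic circRNAs alone, -0.335 with circBase circRNAs alone and -0.202 with circRNAs that had at least 2 reads in at least 2 libraries. Same-numbered libraries did not deviate together in every pair (correlations of -0.08, 0.16 and 0.32 over circRNAs and 0.02, 0.09 and 0.17 over hosts), so the numbers do not pair the libraries; with the replicate block 0 circRNAs and 0 hosts were called. Depth limits what could be tested: 173 of the 176 circRNAs and 74 of the 81 hosts lay below the filter.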
